A study of Drosophila melanogaster with 6 samples.

Results

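The genes described here are 149 annotated long noncoding RNAs of the fruit fly *Drosophila melanogaster*. Their read counts were higher in tagged nuclei, mostly of photoreceptors, than in the head homogenate from which the nuclei were isolated. They were chosen among 2259 genes whose FlyBase symbol starts with lncRNA: or asRNA:, out of 17558 genes in the count table. Counts were divided by the sum over genes in each sample to give counts per 1000000 counts on genes (CPM). A gene was kept when it had at least 1 CPM in all 3 post-isolation samples and when its mean post-isolation CPM was at least 2 times its mean pre-isolation CPM, a quotient called the ratio from here on. The level alone was met by 476 of the 2259 genes, and 687 had no count in any sample. The dosage compensation RNAs roX1 and roX2 and the stress-inducible Hsromega were set aside beforehand. Of the 149 selected RNAs, 111 carry the prefix lncRNA: and 38 the prefix asRNA:, which marks an antisense RNA, and all 149 are named only by CR and a number. Since the levels before and after isolation chose these genes, their ratios are a description and no test of them is given as evidence.

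Long noncoding RNAs are transcripts without a long open reading frame that are made by RNA polymerase II and often capped, spliced and polyadenylated like mRNA. Many stay in the nucleus, near the gene from which they are transcribed, and many are antisense to a coding gene, lie inside its introns, or are primary transcripts from which microRNAs are cut. They are known for being transcribed in few cell types, and the fly nervous system expresses many of them, most without a described function.

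The samples came from male flies aged 10 days that carried *UAS-GFP-Msp300KASH*, which places GFP on the outer nuclear membrane, and *Rh1-Gal4*, which drives it in the outer photoreceptors R1 to R6, in a *w* background with *ry[506]*. Each of 3 biological replicates, a pool of heads, gave a pre-isolation sample of RNA from the homogenate and a post-isolation sample of RNA from nuclei bound by GFP antibody on beads and washed with 300 mM NaCl. All 6 samples thus share genotype, sex and age, and no sample lacked the transgene. The post-isolation samples differ from the pre-isolation samples both in cell type and in being nuclear rather than whole-cell RNA, and these cannot be told apart in any value below. Nor can more cells of a type be told apart from more RNA per cell. Each sample had 9999540 to 11232033 counts on genes before isolation and 11693481 to 14522962 after it.

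The post-isolation label was checked against marker genes. Of 10 photoreceptor genes, 9 passed the test for a change of more than 2-fold described below, all upward. The exception was *ninaE*, the rhodopsin of R1 to R6, with 31925 to 34555 CPM before and 43361 to 45479 CPM after. Summed over all 10, *ninaE* included, the level went from 43217 to 45760 CPM before isolation to 89975 to 108242 CPM after it. The 4 rhodopsins of R7 and R8, which lie outside the cells the driver is known for, were all called higher, from a sum of 2290 to 2340 CPM to one of 5656 to 9570 CPM. The paper also found *Rh1* and *GFP* transcripts in antennae, and proposes that a minority of the enriched nuclei came from mechanosensory neurons. Here 5 markers of the Johnston organ, the auditory organ, summed to 19.9 to 31.6 CPM before and 28.3 to 38.8 CPM after, and none was called. Glial markers summed to 1955 to 2106 CPM before and 622 to 1007 CPM after isolation, fat body markers to 9927 to 11543 CPM before and 2303 to 4125 CPM after, and none of these was called in either direction. Of 3 muscle markers 2 were called lower (*Mlc2* and *up*), and of 4 brain neuron markers 1 (*Gad1*). Neither of the 2 hemocyte markers was called. Mitochondrial and ribosomal protein genes, a sign of cytoplasm, summed to 12304 to 14188 CPM before and 1335 to 2525 CPM after.

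The selected RNAs made up 31.3% of the 476 long noncoding RNAs that met the level, and 8.29% of 8489 protein-coding genes at the same level had a ratio of 2 or more. The level was required after isolation only, so scarce genes could enter through the group where they were high. The 2 shares were not matched for level, and nothing is read from their difference. The selected RNAs had a median ratio of 3.57, beside 0.827 for the other 327 long noncoding RNAs at the level, 0.719 for the coding genes and 0.704 for all 10378 genes tested. Ratios lay between 2 and 3 for 53 of them, between 3 and 5 for 41, between 5 and 10 for 25 and at 10 or above for 27, and 3 had no count before isolation. Most were scarce. The mean post-isolation level was under 5 CPM for 62, from 5 to 10 CPM for 31, from 10 to 100 CPM for 50 and above 100 CPM for 6, with a median of 6.64 CPM and a range of 1.27 to 7012 CPM. The scatter of mean levels shows this spread against the other long noncoding RNAs.

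**Figure D1:**
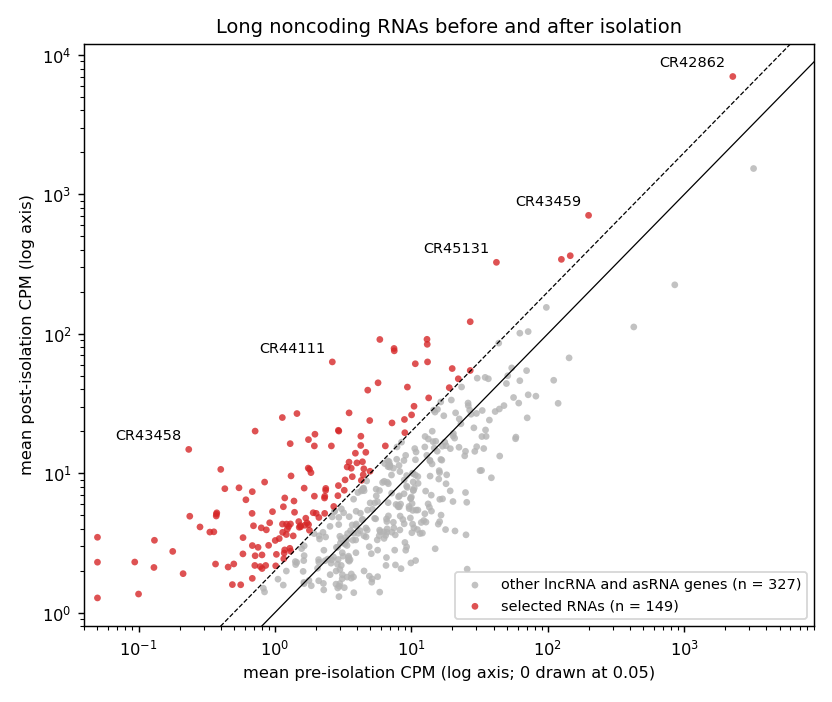
Mean CPM over 3 pre-isolation samples (x axis) and 3 post-isolation samples (y axis), both on log axes, for the 149 selected RNAs (red) and the other 327 lncRNA and asRNA genes at 1 CPM or more in all post-isolation samples (grey). The solid line marks equal levels and the dashed line a ratio of 2, above which all red points lie by the rule that chose them.

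In edgeR's glmTreat test against a 2-fold change, 94 of the 149 were called higher at an FDR below 0.05, where 7.29% of all 10378 genes tested were called higher. The same contrast chose the RNAs, so nothing is read from that count. The 55 that were not called had a median post-isolation level of 3.76 CPM, against 11.5 CPM for the 94, and a highest ratio of 6.08. Of the other 327 long noncoding RNAs, 1 was called higher and 9 lower, where 4.89% of all genes tested were called lower. Every post-isolation sample lay above every pre-isolation sample for 136 of the 149, a pattern seen in 16.4% of all genes tested, and the groups overlapped for 13. The ratio divided the selected RNAs from the other 327, so nothing is read from these counts either. The scaling of libraries moves all these values together. With TMM scaling the median log2 fold change was 2.31 for the selected RNAs and -0.07 for all genes tested, and with library size alone it was 1.86 and -0.51.

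Together the 149 RNAs accounted for 3118, 3316 and 3302 CPM in the pre-isolation samples and 11423, 12306 and 8794 CPM in the post-isolation samples. One RNA carried most of this. lncRNA:CR42862 (FBgn0262109, chromosome 3L:224106-230964, plus strand, 3 exons, BDGP6) was at 2139, 2355 and 2312 CPM before isolation and at 7430, 8018 and 5588 CPM after it, a ratio of 3.09. All 3 post-isolation samples were above all pre-isolation samples, with the third the lowest of the post-isolation group. It made up 64.7% of the mean post-isolation sum of the selected RNAs. Per kilobase of exon its post-isolation level was 1278 CPM, against 188 CPM per kilobase for lncRNA:CR45054 and 93.2 CPM per kilobase for lncRNA:CR43459, which followed it in level. It begins inside the coding gene *CG33229* on the same strand, with which it shares 246 exonic bases, so reads there could not be given to one gene, and *CG33229* itself had a ratio of 2.45. Without CR42862 the remaining RNAs summed to 979, 961 and 989.9 CPM before isolation and 3992, 4288 and 3206 CPM after it.

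The next 2 in level are neighbors on chromosome 3R. CR43459 (3R:10093761-10101356, plus strand, 1 exon) was at 200, 187 and 209 CPM before and 706, 776 and 641 CPM after isolation, a ratio of 3.56. It spans the genes of mir-277 and mir-34, the latter a microRNA known for its part in ageing of the fly brain. CR45054 (3R:10083381-10090525, plus strand), upstream of it on the same strand, was at 146, 141 and 151 CPM before and 336, 413 and 341 CPM after, a ratio of 2.49. Their SDs were 11.1 and 4.72 CPM before and 67.4 and 43.4 CPM after isolation (n = 3). The coding gene 63 bases from CR43459, *Fmr1*, an RNA-binding regulator of translation in neurons, had a ratio of 0.611, so the levels of these neighbors did not move alike.

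Several of the most abundant selected RNAs lie opposite a coding gene. asRNA:CR44029 (chromosome 4:879374-884752, plus strand) is antisense to *unc-13*, which primes synaptic vesicles for release. It was at 113, 136 and 127 CPM before and 383, 366 and 277 CPM after isolation, a ratio of 2.72, while *unc-13* had a ratio of 2.14. asRNA:CR45131 (2R:7631495-7635219, minus strand) lies opposite *M7BP*, a gene for a myosin-binding protein, and was at 44.3, 45.0 and 36.7 CPM before and 361, 343 and 273 CPM after, a ratio of 7.75 beside 8.35 for *M7BP*. asRNA:CR45133 (2R:10152717-10154345, plus strand), opposite the voltage-gated potassium channel gene *KCNQ*, was at 7.48, 6.0 and 8.90 CPM before and 74.2, 91.8 and 69.5 CPM after, a ratio of 10.5 beside 9.44. In these 3 the antisense RNA and the coding gene had ratios that differed by less than 1.5 times, and the RNA stayed at a like percentage of the coding gene's CPM, from 9.98% to 12.7%, from 2.97% to 2.76% and from 11.0% to 12.3%.

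asRNA:CR43806 (2L:16178318-16179188, minus strand), opposite the L-type calcium channel gene *Ca-alpha1D*, was at 6.77, 7.30 and 8.40 CPM before and 83.2, 93.9 and 49.3 CPM after isolation. Its ratio was 10.1 and that of *Ca-alpha1D* 6.02, and the third post-isolation sample was again the lowest. lncRNA:CR45910 (3R:25586442-25589179, minus strand) lies in an intron of *msi*, the RNA-binding protein Musashi, on the other strand, and spans the gene of mir-1000. It was at 27.5, 27.1 and 26.3 CPM before and 121, 136 and 109 CPM after, a ratio of 4.52 beside 3.34 for *msi*. asRNA:CR43480 (X:23090324-23093609, plus strand, 5 exons) was unusual in exceeding its partner, *CG17162*. It was at 14.1, 12.5 and 12.5 CPM before and 104, 98.1 and 72.0 CPM after, which is 166% and then 507% of the CPM of *CG17162*.

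Some abundant RNAs were far above the ratio of the gene they overlap. lncRNA:CR45262 (2L:9261820-9262804, minus strand, 2 exons) lies wholly opposite *Ggamma30A*, a G protein gamma subunit that acts in phototransduction, without overlap of exons. It was at 2.31, 6.09 and 9.20 CPM before and 112, 108 and 53.4 CPM after isolation, so its ratio was 15.5 while that of *Ggamma30A* was 1.27. As a percentage of the CPM of *Ggamma30A* it went from 0.136% to 1.66%. lncRNA:CR43900 (2R:12259409-12260813, plus strand, 3 exons) starts at nearly the same place and on the same strand as *Cam*, the gene of calmodulin, and shares 199 exonic bases with it. It was at 11.3, 15.9 and 12.0 CPM before and 81.9, 86.7 and 83.6 CPM after, a ratio of 6.44, whereas *Cam* had a ratio of 0.479. Its post-isolation samples had a coefficient of variation (SD divided by mean) of 2.84%, among the smallest of the selected RNAs.

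**Figure D2:**
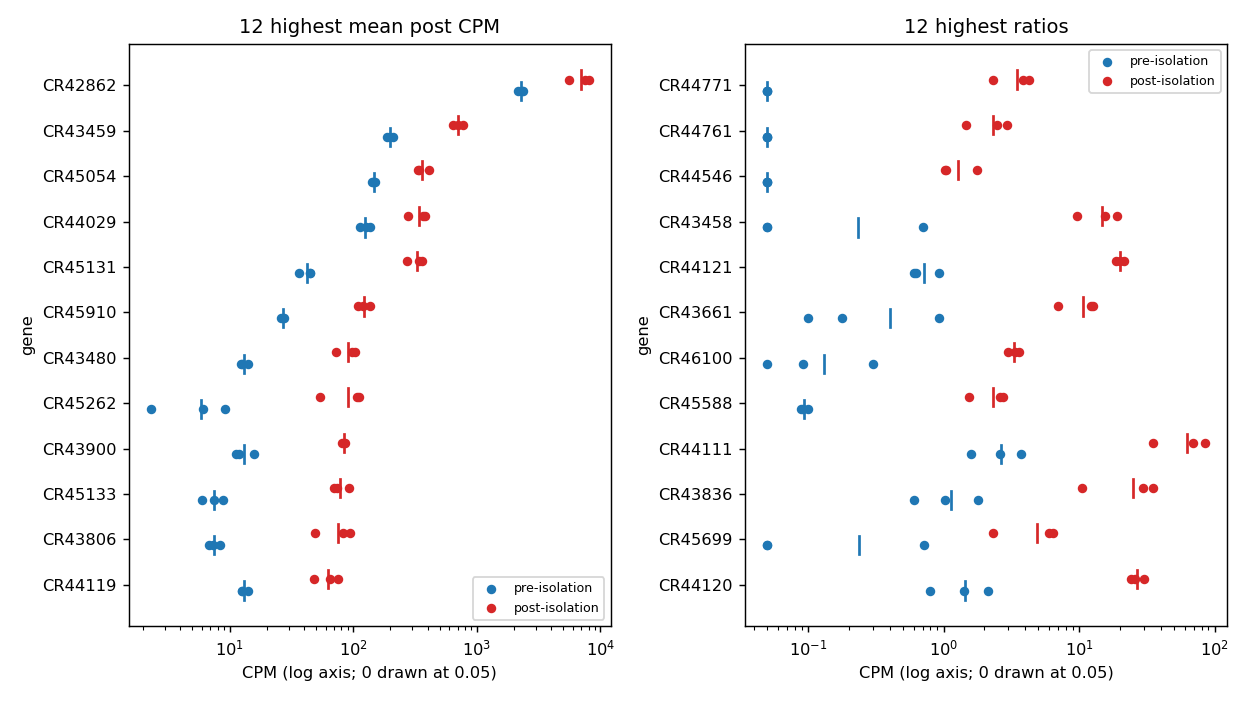
CPM in each sample (points, log axis) and the group mean (bars) for the 12 selected RNAs of highest mean post-isolation CPM (left) and the 12 of highest ratio (right), with pre-isolation samples in blue and post-isolation samples in red; 0 is drawn at 0.05 CPM. In all 24 every red point lies to the right of every blue point, and the RNAs of highest ratio have means of 0 to 2.63 CPM before isolation.

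The highest ratios belonged to RNAs that were nearly absent from the homogenate. The RNAs lncRNA:CR44771, lncRNA:CR44761 and lncRNA:CR44546 had 0 counts in all 3 pre-isolation samples. Their post-isolation levels were 4.27, 3.83 and 2.31 CPM for CR44771, 2.96, 1.46 and 2.48 CPM for CR44761 and 1.03, 1.76 and 1.03 CPM for CR44546. Against a floor of 3 counts over the pre-isolation group, or 0.0936 CPM, they were at least 37.1-fold, 24.6-fold and 13.6-fold higher after isolation, where the floor covers counting error only. CR44771 (2L:15159508-15160126, minus strand) is 1755 bases downstream of *CG4168* on the same strand, which had a ratio of 5.78. Whether reads past the end of *CG4168* were counted on it was not tested. A further RNA with few counts, lncRNA:CR45588, had 1 count in each pre-isolation sample and 38, 36 and 18 counts after isolation, a ratio of 24.6 with a 95% counting interval of 8.31 to 124. In all, 32 of the 149 had no count in at least 1 pre-isolation sample and 47 had fewer than 30 counts over the 3.

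lncRNA:CR43458 (3R:31132330-31133050, plus strand) had the highest ratio that could be computed, 63.5. It was at 0, 0 and 0.70 CPM before isolation and 19.1, 15.6 and 9.66 CPM after it, and its pre-isolation counts, 7 in total, all came from 1 sample, without which it was at least 109-fold higher, against a floor of 3 counts over the remaining pre-isolation samples. It lies 1341 bases from *Gycbeta100B*, a guanylate cyclase subunit with a ratio of 1.31. lncRNA:CR43661 (2R:17306759-17307302, minus strand), opposite the splicing regulator *mbl*, was at 0.178, 0.923 and 0.10 CPM before and 12.7, 12.3 and 7.01 CPM after, a ratio of 26.6 beside 3.05 for *mbl*. Of its 13 pre-isolation counts 10 came from replicate 2, and without that sample its log2 fold change went from 5.15 to 6.59. It and *mbl*, whose mean post-isolation level was 3573 CPM, differ widely in level, and the RNA stood at 0.298% of the CPM of *mbl* after isolation.

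lncRNA:CR46100 (3R:25553703-25554335, minus strand) is the second selected RNA opposite *msi*. It was at 0, 0.0923 and 0.300 CPM before and 3.58, 2.99 and 3.34 CPM after isolation, a ratio of 25.2. This rests on 4 pre-isolation counts, 3 of them in replicate 3, without which its log2 fold change went from 5.05 to 6.29. lncRNA:CR45699 (2L:17644448-17644844, minus strand) is 2208 bases downstream, on the same strand, of *CadN*, the neuronal cadherin, which had a ratio of 2.77. Reads past the end of *CadN* were likewise not tested for. CR45699 was at 0.712, 0 and 0 CPM before and 5.99, 6.44 and 2.31 CPM after, a ratio of 20.7. Its 8 pre-isolation counts came from a single sample, without which it was at least 34.1-fold higher by the same kind of floor.

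At the other edge of the selection, the lowest ratio was 2.02, that of asRNA:CR45144. It was at 30.2, 24.3 and 26.5 CPM before and 63.6, 54.2 and 45.8 CPM after isolation, and its groups did not overlap. asRNA:CR44806, opposite the potassium-chloride cotransporter gene *kcc*, followed with a ratio of 2.07, from 3.38, 6.0 and 3.50 CPM to 10.6, 11.5 and 4.53 CPM, and its groups overlapped. asRNA:CR45806 had a ratio of 2.08 and groups that did not overlap, and neither it nor CR44806 was called. Just under the limit were asRNA:CR45145 at 1.98, lncRNA:CR45522 at 1.97 and asRNA:CR46093 at 1.97, so no gap separates the selected RNAs from the rest. The 3 well-known RNAs set aside by the rule had ratios of 1.83 for roX1, 1.57 for Hsromega and 1.07 for roX2, and none would have met the limit.

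By their place in the genome the selected RNAs fall into those inside or overlapping a coding gene on the same strand (29 of 149, 19.5%), those overlapping one on the opposite strand (84, 56.4%) and those that overlap none (39, 26.2%), with 3 in both of the first classes. Among the other 327 long noncoding RNAs at the level these shares were 11.0%, 74.9% and 17.7%. Overlap of exons with a coding gene on the opposite strand was found for 45 of the selected RNAs (30.2%) and for 218 of the others (66.7%). The prefix asRNA: was likewise carried by 25.5% of the selected RNAs and 64.5% of the others. Only 6 of the selected RNAs (4.03%) began within 1 kb downstream of a coding gene on the same strand without overlapping one, against 52 of the others (15.9%). Their exons summed to a median of 791 bases, against 1078 in the others, and 85 (57.0%) had a single exon, against 165 (50.5%). They lay on 2L (34), 2R (27), 3L (46), 3R (25), 4 (3) and X (14). These shares were compared without a test.

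Where several coding genes overlapped an RNA on one strand, the one of highest mean post-isolation CPM was taken as its host or partner. Of the 29 RNAs that overlap a coding gene on the same strand, 25 lie wholly inside one and 6 share exonic bases with the host. For 13 of the 29 (44.8%) the host gene also had a ratio of 2 or more, and for 7 it was under 1. Among the 36 other long noncoding RNAs so placed, the host had a ratio of 2 or more for 1 (2.78%) and under 1 for 29. The 26 distinct hosts of the selected RNAs included 9 that were called higher and 1 called lower, where 7.29% of all genes tested were called higher and 4.89% lower. Since hosts were picked by post-isolation level where several overlapped, these shares are not like for like. The RNA had a higher ratio than its host in 28 of 29, with medians of 4.53 and 1.68. The rule fixes this for the 16 hosts under 2, and among the 13 at 2 or more the RNA was higher in 12. The exception was lncRNA:CR43991, with a ratio of 3.58, inside *app*, a palmitoyltransferase gene with a ratio of 6.79. These tallies hold for the host taken. lncRNA:CR43836, at 22.2 and paired with *CG10962* at 4.76, also spans *CG12662* on its own strand, at 46.8. Over whole libraries, 44.8 to 45.5% of uniquely mapped alignments fell in no annotated feature before isolation and 48.8 to 52.4% after it. That share is not specific to these RNAs or their hosts. How far unspliced RNA of the host was counted on these RNAs was not tested.

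For 3 of the 29 the ratios of RNA and host were within 1.5 times of each other. lncRNA:CR45961 had a ratio of 4.32 inside *SPoCk*, a calcium pump gene at 2.96. Farther apart, lncRNA:CR44360 stood at 6.05 inside *DopEcR*, a receptor for dopamine and ecdysteroids, at 2.54. lncRNA:CR45808 had a ratio of 4.82 inside the kinase gene *Hipk*, at 1.21, and asRNA:CR45827 a ratio of 2.29 inside *SCOT*, a gene of ketone body use, at 0.358. One host, *Lasp*, had only 1 count before and 10 counts after isolation in all, so its ratio, which is counted among those of 2 or more here and among opposite-strand partners, rests on few counts. The 4 RNAs of this paragraph were chosen after their values were seen.

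The 84 RNAs opposite a coding gene had 77 distinct partners. The partner had a ratio of 2 or more for 31 of the 84 (36.9%) and under 1 for 19, whereas among the 245 other long noncoding RNAs so placed it was 2 or more for 9 (3.67%) and under 1 for 166. Of the 77 partners, 31 were called higher and 0 lower by edgeR's glmTreat, where 7.29% of all genes tested were called higher and 4.89% lower. Partners too were picked by post-isolation level where several overlapped, so nothing is read from the difference between these shares. The RNAs had a median ratio of 3.25 and their partners one of 1.53, and the RNA exceeded the partner in 78 of 84. The rule fixes this for the 53 partners under 2, and among the 31 at 2 or more the RNA was higher in 25. For 22 of the 84 the 2 ratios were within 1.5 times of each other. The RNA was usually much scarcer than its partner, at a median of 2.85% of the partner's CPM after isolation and a range of 0.144 to 2335%, and exceeded it in 5. Reads were counted by strand, and whether a small part of the partner's reads was assigned to the opposite strand was not tested. The plot of paired ratios shows the RNAs mostly above the line of equal ratios in both arrangements.

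**Figure D3:**
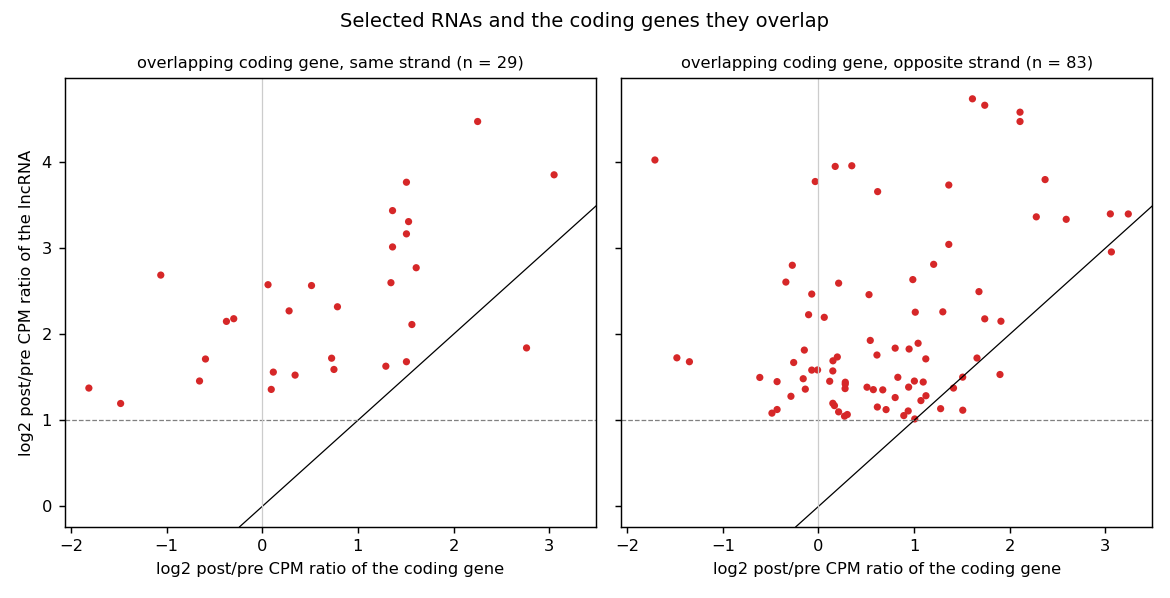
The log2 ratio of post-isolation to pre-isolation CPM of each selected RNA (y axis) against that of the coding gene it overlaps (x axis), for the same strand (left) and the opposite strand (right, without 1 RNA that had no pre-isolation count). Where several coding genes overlap on a strand, the one of highest mean post-isolation CPM is drawn. The solid line marks equal ratios and the dashed line the ratio of 2 required of the RNAs, and most points lie above the solid line, 28 of 29 on the left.

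Partners that were not called but lay opposite an RNA of high ratio included *EcR*, the ecdysone receptor, at 0.977, where lncRNA:CR43904 on the other strand went from 0, 1.02 and 0.10 CPM to 3.99, 6.98 and 4.28 CPM, a ratio of 13.7. They also included *tkv*, a receptor of the BMP pathway, at 1.54, opposite lncRNA:CR44744 at 12.6. Among partners that moved with their RNA were *AdoR*, the adenosine receptor, at 3.72 beside asRNA:CR46082 at 2.89, and *Hk*, a subunit of potassium channels, at 1.92 beside asRNA:CR43959 at 2.61. All 4 RNAs were chosen after their values were seen.

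The 39 RNAs that overlap no coding gene had a median ratio of 4.54, and their nearest coding gene was at a median distance of 1755 bases. That gene had a ratio of 2 or more for 18 of them and under 1 for 12, with a median of 1.71. The 18 include 2 listed at 0 before isolation, *Obp22a* and *CG17242*, which had means of only 0.560 and 0.0767 CPM after it. The same count for the other long noncoding RNAs without overlap is not given here, so nothing is read from the 18. lncRNA:CR44718 (3L:11236500-11237620), 281 bases from the ionotropic receptor gene *Ir68a*, was at 6.14, 14.5 and 11.4 CPM before and 66.1, 66.0 and 50.9 CPM after isolation. Its ratio of 5.71 was accompanied by one of 3.96 for *Ir68a* and 7.58 for lncRNA:CR44719 beside it. lncRNA:CR14310 (3R:18372928-18373329) lies 189 bases from *gl*, the transcription factor Glass that specifies photoreceptors. It was at 0.356, 0.554 and 1.5 CPM before and 3.58, 2.15 and 2.05 CPM after, a ratio of 3.23 that was not called, while *gl* had a ratio of 5.69. CR44718, CR44719 and CR14310 were chosen after their values were seen.

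Some of the selected RNAs were close to each other. With a distance of at most 10 kb, 29 of them (19.5%) formed 12 clusters of 2 to 4. The same share for the other long noncoding RNAs is not given here, so nothing is read from it. At the *SLC5A11* locus on 2L, a gene of the sodium-solute cotransporter family, 3 lie within 4.5 kb. asRNA:CR44119 (2L:8201557-8205298, plus strand) overlaps *SLC5A11* on the opposite strand and was at 12.6, 12.7 and 14.1 CPM before and 64.4, 75.8 and 48.3 CPM after isolation, a ratio of 4.79 beside 2.46 for *SLC5A11*. lncRNA:CR44120 (2L:8205367-8205648, minus strand) was at 1.42, 2.12 and 0.80 CPM before and 24.3, 30.1 and 25.9 CPM after, a ratio of 18.5. Next to it lncRNA:CR44121 (2L:8205778-8206044, minus strand) was at 0.623, 0.923 and 0.600 CPM before and 18.7, 20.02 and 21.5 CPM after, a ratio of 28.0, and its post-isolation samples, unlike those of most other RNAs, were not lowest in the third. Its start is 126 bases from that of *CG8419*, which runs the other way and had a ratio of 3.86. Genes farther along had other ratios, such as 0.274 for *Su(var)205*, which encodes a heterochromatin protein.

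At the locus of *Pde1c*, a calcium- and calmodulin-dependent phosphodiesterase gene with a ratio of 2.84, 4 RNAs lie within 5.6 kb. lncRNA:CR45013 is antisense to it and was at 17.9, 19.0 and 22.8 CPM before and 49.4, 68.7 and 50.9 CPM after isolation, a ratio of 2.83. The other 3 lie on the strand of *Pde1c*, with ratios of 8.97 for lncRNA:CR45014, 13.6 for lncRNA:CR43937, which had 3 pre-isolation counts in all and a 95% counting interval of 4.77 to 73.5, and 3.20 for asRNA:CR43936. At *CG33144* on 2R, with a ratio of 2.57, lncRNA:CR44299 on the opposite strand went from 6.59, 3.97 and 3.80 CPM to 49.2, 45.8 and 23.3 CPM. Its ratio was 8.24, and those of lncRNA:CR44300 and lncRNA:CR44301 on the strand of *CG33144* were 8.07 and 10.8. Farther along in that gene lncRNA:CR43605 stood at 13.3. The RNAs of these 2 loci were taken up because they cluster, after their values were seen.

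The X chromosome locus of *rdgA*, the diacylglycerol kinase of the phototransduction cascade, held 2 of the highest ratios. lncRNA:CR44111 (X:8919640-8920467, minus strand, 2 exons), opposite *rdgA*, was at 1.60, 3.69 and 2.60 CPM before and 84.8, 69.0 and 34.8 CPM after isolation, a ratio of 23.9. lncRNA:CR43836 (X:8972908-9048991, minus strand, 6 exons) was at 1.78, 1.02 and 0.600 CPM before and 35.0, 29.7 and 10.5 CPM after, a ratio of 22.2. *rdgA* itself had a ratio of 4.31, and the RNAs stood at 1.41% and 0.562% of its CPM after isolation. CR43836 shares 473 exonic bases with *CG10962* on its own strand, which had a ratio of 4.76, so that reads there could not be given to one gene. Among small coding genes within or opposite *rdgA*, the ratios were 27.3 for *CG43255*, 25.1 for *CG12661* and 46.8 for *CG12662*, which lies inside CR43836 on the same strand. On the map of the 4 loci these stand out among neighbors such as *e(r)*, at 0.653.

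**Figure D4:**
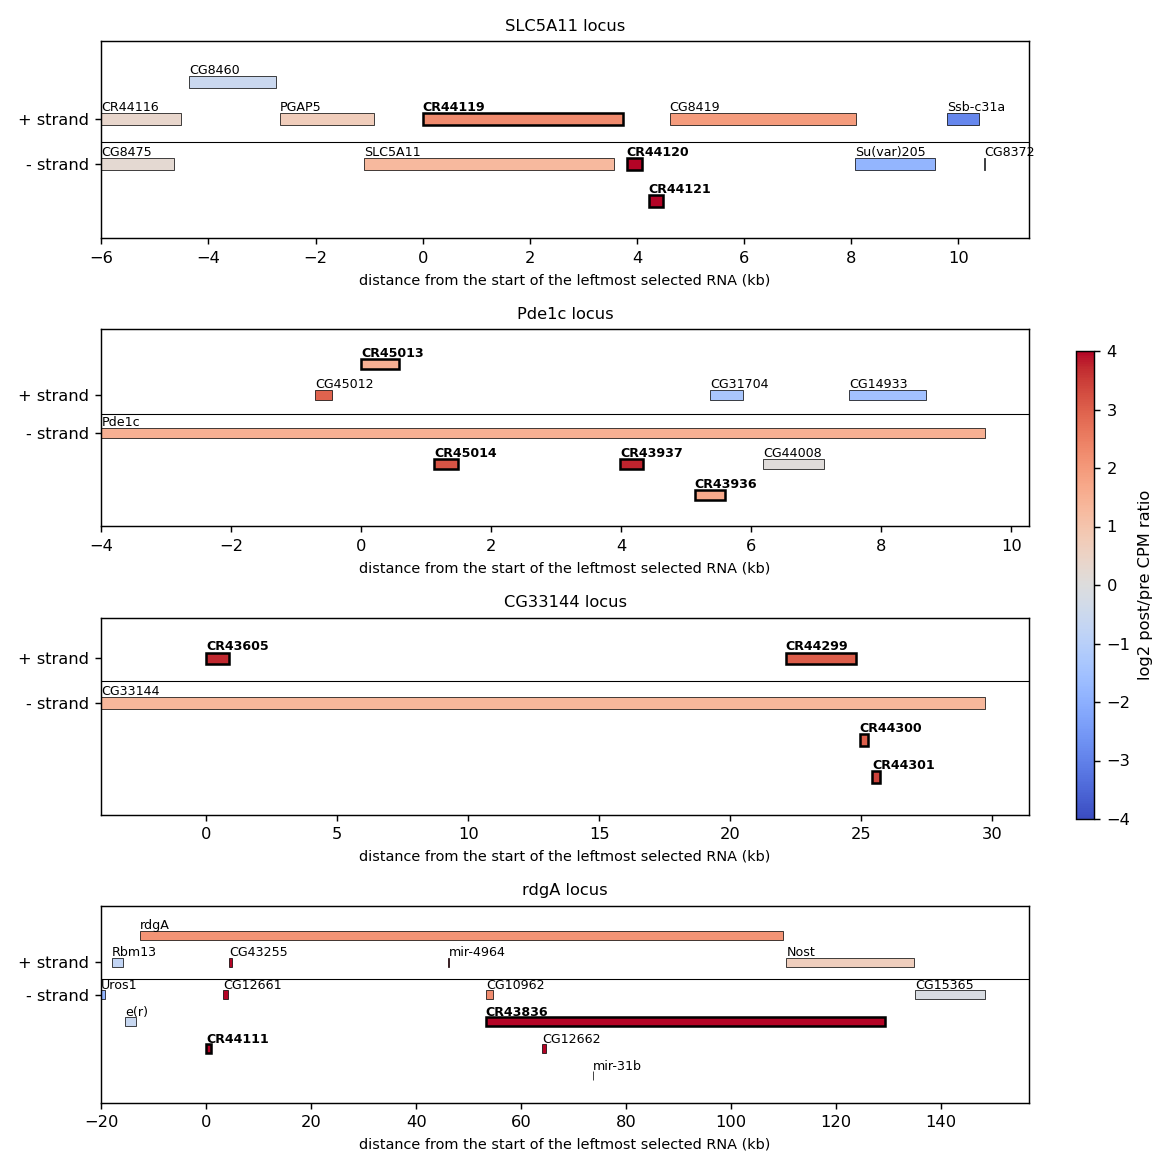
Genes along 4 loci (lowly counted ones left out), with distance in kb from the start of the leftmost selected RNA on the x axis and plus-strand genes above and minus-strand genes below the line. Fill shows the log2 ratio of post-isolation to pre-isolation CPM, with colors capped at -4 and 4, and bold names and thick outlines mark selected RNAs, which have higher ratios than the coding gene of the panel title or are near it, as CR45013 at 2.83 beside 2.84 for *Pde1c*.

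Of the 149, 4 span microRNA genes: CR43459 (mir-277 and mir-34), CR45910 (mir-1000), lncRNA:CR43857 (mir-275) and CR43836 (mir-31b). The rows of mir-277, mir-34, mir-1000 and mir-275 held 0 counts in all 6 samples. The row of mir-31b held 0, 5 and 3 counts before and 150, 107 and 34 counts after isolation. These libraries do not measure mature microRNAs, and a read that lies on overlapping genes of one strand could not be given to one of them. CR43857 (2L:7423820-7425932, plus strand) was at 5.61, 2.86 and 2.00 CPM before and 14.2, 11.6 and 10.3 CPM after isolation, a ratio of 3.44.

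The spread of replicates varied widely among the selected RNAs. The coefficient of variation over post-isolation samples had a median of 29.1%. For the 93 RNAs between 1 and 10 CPM it was 32.6%, against 33.0% for all genes tested in that range, and for the 56 above 10 CPM it was 19.2%, against 15.4% for all genes tested above 10 CPM. Within these ranges the levels were not matched, and the genes tested did not have to reach 1 CPM in every post-isolation sample. The widest were lncRNA:CR44050, inside the chloride channel gene *pHCl-1*, at 66.9%, lncRNA:CR45363 at 65.2% and lncRNA:CR43910, inside the talin gene *rhea*, at 63.7%. The narrowest was lncRNA:CR43963, inside the corepressor gene *Smr*, at 2.83%, from 1.78, 1.57 and 1.80 CPM to 4.41, 4.52 and 4.28 CPM. CR43900 at 2.84% and lncRNA:CR45032 at 5.11% followed, and of these 3 only CR43900 was called. CR45032, at 0, 0.646 and 3.00 CPM before isolation, had a ratio of 3.55, which was 13.3 without pre-isolation replicate 3 and 2.37 without replicate 1. CR43910 had a ratio of 2.88 with all samples and of 1.87 without post-isolation replicate 2. CR45363 had a ratio of 15.4, with all 6 of its pre-isolation counts in replicate 1, without which it was at least 19.1-fold higher, and the ratio was 10.2 without post-isolation replicate 2.

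The third post-isolation sample held the lowest of the post-isolation values for 96 of the 149 RNAs (64.4%), the first for 42 and the second for 11. The 770 other tested genes with a ratio of 2 or more were lowest in the third sample in 67.9%, so the selected RNAs shared this with the rest. Against the mean pre-isolation level, the median log2 ratio of the selected RNAs was 1.83, 2.00 and 1.65 in post-isolation samples 1, 2 and 3. Within numbered pairs the ratio was 2 or more for 120 RNAs in pair 1, 139 in pair 2 and 117 in pair 3, and for 86 in all 3. Without the third post-isolation sample the same rule on the remaining 5 gave 177 RNAs rather than 149.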

How the data were processed

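Sequencing of 3 pre-isolation and 3 post-isolation samples gave 50 bp single-end reads. Per the labels and the study's methods, the authors used Trimmomatic, then TopHat with Bowtie 2 against BDGP6, and deposited a raw count for each gene from strand-specific HTSeq. A filtered count table of 5262 genes, equal to the unfiltered one with 0 differences, holds 29 of the 149 RNAs. Neither it nor its CPM table entered a result.

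CPM was taken over gene rows, without the summary rows of unassigned alignments (93.4 to 95.6% of each column). Symbols matched for 17252 of 17558 genes, and positions came from a later Ensembl annotation of BDGP6. The 10378 genes above 1 CPM in 3 or more samples were tested with edgeR 4.0.16 in R 4.3.3 (TMM, glmQLFit, glmTreat against a 2-fold change, Benjamini-Hochberg adjustment). The procedure was also run on simulated counts with equal numbers of genes raised and lowered, which did not test the scaling of libraries. Reads carry no molecular identifiers, so intervals and floors cover counting error only.

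The labels number the samples of each group, and the paper refers to a respective pre-isolation sample for each replicate. Same-numbered samples were therefore taken as pairs. Deviations from group means correlated at 0.00933, 0.0476 and -0.0134 in pairs 1, 2 and 3. The fit has no block, since the study's methods name the test but no block.

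Named RNAs were the 12 highest in post-isolation CPM, the 12 highest in ratio, the 3 lowest in ratio with the 3 just under the limit, and the 3 widest and 3 narrowest in spread. The RNAs, lists and rules were chosen with earlier results of these data known. Alternatives were other limits, DESeq2 1.42.0, RLE factors, library size, other filters, the F test, the legacy fit and leaving out samples. Sequences and promoter motifs were not analysed here.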

Additional observations from a re-analysis of the deposited data

How the results depend on the processing

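The number of RNAs selected, 149, depends on its limits. A ratio of at least 3 left 96, and a ratio of at least 2 in every same-numbered pair, as a replicate block, left 86. Other levels, a ratio of 1.5 and CPM scaled with TMM gave 118 to 212, within 1.5 times of 149, and leaving out 1 sample gave 152 to 177. In the fit with the replicate block, 92 of the 149 were called, 91 of them among the 94 called without it, and no other count of calls moved by over 1.5 times. The F test against no change called 145, at least 10 counts in every sample 50, and leaving out 1 sample gave 57 (without post-isolation replicate 2) to 98 (without post-isolation replicate 3, 74 of them among the 94). The setting with 10 counts tested 69 of the RNAs, and each setting without a post-isolation sample 127. Over all genes, 757 were called higher, with 2535 by the F test, 451 with library size only and 555 to 942 when 1 sample was left out. Those called lower numbered 508, with 278 by DESeq2, 2707 by the F test, 1253 with library size only and 345 to 725 when 1 sample was left out. Overlap on the opposite strand fell from 84 RNAs to 45 when exons had to overlap, and a distance of 5 kb in place of 1 kb raised the RNAs just downstream of a gene from 6 to 26. Of the 404 values of named RNAs under alternatives, 0 changed direction, 12 lost the call and 11 gained it. The rule chose these RNAs for being higher in the same samples, so nothing is read from the 0. Most often the loss concerned CR45144, the RNA of lowest ratio. Of the 149, 47 had fewer than 30 pre-isolation counts. The legacy fit was added after seeing the data.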
